A study of Mus musculus with 12 samples.

Results

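The EGR transcription factors and their NAB corepressors were followed through striatal RNA-seq of hemiparkinsonian mice given L-DOPA. The set was chosen by gene symbol and comprises 6 genes, Egr1, Egr2, Egr3, Egr4, Nab1 and Nab2, of 52169 gene symbols in the transcript table. They hold 42 of 189364 transcripts that name a gene. Each gene is described by its transcript with the highest mean level over all libraries, and the other transcripts by their range.

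C57BL/6J mice received 6-OHDA, a toxin taken up by dopamine neurons, in the right medial forebrain bundle (1 µl at 3 µg per µl) after desipramine (25 mg/kg), which spares noradrenergic neurons, so that only the right striatum lost its dopamine input. After 2 weeks they were injected with L-DOPA (10 mg/kg) together with benserazide (7.5 mg/kg), which limits its conversion outside the brain, either as a single dose (acute L-DOPA) or on each of 9 days (chronic L-DOPA). Striatal punches were taken 1 hour after the last dose, giving 4 groups of 3 libraries: unlesioned and lesioned striatum after acute L-DOPA, and unlesioned and lesioned striatum after chronic L-DOPA. Every group had received L-DOPA and no untreated or saline group was analysed here, so the effect of the lesion and the response to L-DOPA in the lesioned striatum cannot be told apart. The labels count 12 mice for the 12 libraries, whereas the study describes the unlesioned side as a control within each mouse.

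EGR proteins are zinc finger factors that bind a short GC-rich site, and their genes are immediate early genes. In striatal spiny neurons they are switched on within minutes of dopamine or glutamate input, through MAP kinase signalling and its target factors on the serum response element and through CREB on the cAMP response element. NAB1 and NAB2 have no DNA-binding domain of their own. They dock on EGR1, EGR2 and EGR3, but not on EGR4, and recruit the NuRD chromatin complex, so that an induced EGR factor can be curbed by its own corepressor.

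The libraries held from 87695043 to 173116525 counts over all transcripts, a read being counted on each transcript it overlaps. Levels are in CPM, that is counts divided by the TMM-scaled library total, and levels of different genes are compared only as CPM per kilobase of transcript. The labelled tissue was checked by 7 markers of medium spiny neurons, all with counts, whose summed level was between 1566 and 2272 CPM in every library. After acute L-DOPA their sum was lower in all lesioned (1722 to 1843 CPM) than in all unlesioned libraries (1918 to 2272 CPM), and 4 of the 7 were called lower and none higher, while after chronic L-DOPA 0 were called in edgeR (2 at an unadjusted p under 0.05, 2 in DESeq2). In the chronic unlesioned group, replicate 2 stood apart by choroid plexus markers, at 462.8 CPM against at most 2.995 CPM in the other libraries, so the comparisons that use it are also given without it. Markers of cortical glutamatergic neurons (8 of 9 in the table, none at 0) summed to between 20.67 and 38.35 CPM in the acute unlesioned and between 9.332 and 23.61 CPM in the acute lesioned libraries, and to between 14.62 and 52.28 CPM and between 9.314 and 31.22 CPM in the chronic unlesioned and chronic lesioned libraries. By replicate number the unlesioned and lesioned sums were 38.35 and 23.61, 20.83 and 9.332, and 20.67 and 11.22 CPM after acute L-DOPA, each lower on the lesioned side. After chronic L-DOPA they were 32.81 and 31.22, 14.62 and 15.58, and 52.28 and 9.314 CPM.

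Egr1, Egr2, Egr3 and Egr4 were all far higher on the lesioned side, whether L-DOPA was acute or chronic, with rises from 4.01-fold to 27.5-fold. Nab2 rose by 1.34-fold after acute and by 1.89-fold after chronic L-DOPA, whereas Nab1 passed the test in neither comparison. The acute calls of both depended on the model, since with cortical markers as a covariate Nab2 did not pass and Nab1 did. In the lesioned striatum Egr1 and Egr4 were lower, and Egr3 and Nab2 higher, after chronic than after acute L-DOPA. Of these calls only that of Egr1 passed with any single library left out, and 23.3% of all transcripts were called. The treatments were given to different mice, so repeated dosing and the longer time since the lesion cannot be told apart.

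**Figure D1:**
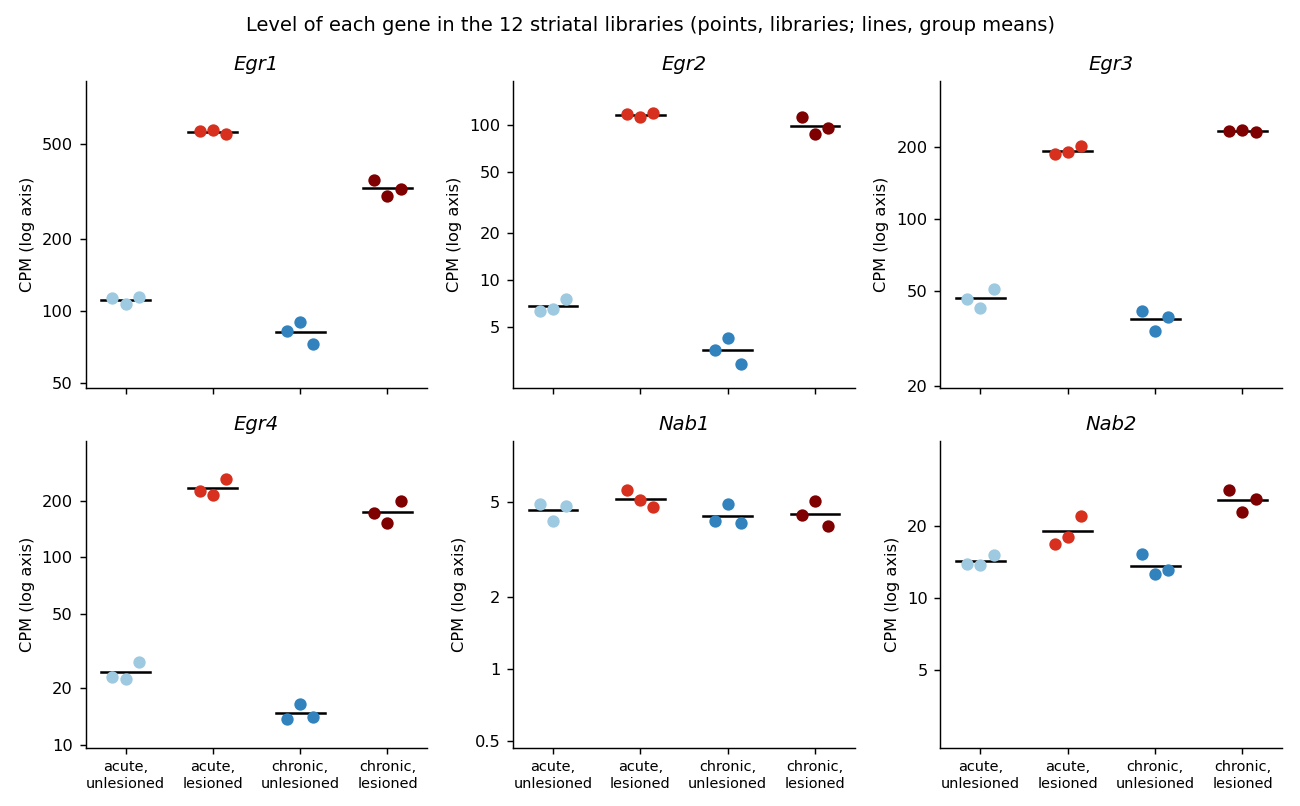
Level of each gene in CPM (log axis, a range of its own in each panel) in the 12 libraries, by group; points are libraries and lines are means of 3 libraries. For Egr1 to Egr4 all lesioned libraries lie above all unlesioned ones, while the groups of Nab1 overlap.

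Egr1, the most studied member and the target of many activity reporters, lies at chr18:35020861-35024610 on the plus strand of mm9 (NM_007913, 2 exons, 3072 nt). After acute L-DOPA its level was 113.5, 106.7 and 114.6 CPM in the unlesioned and 567.3, 573.4 and 551.9 CPM on the lesioned side. After chronic L-DOPA it was 82.35, 90.16 and 72.59 CPM in the unlesioned and 353.8, 302.9 and 324.5 CPM in the lesioned striatum. No group overlapped another, and the order from low to high was chronic unlesioned, acute unlesioned, chronic lesioned and acute lesioned. The lesion effect was 2.34 ± 0.063 on the log2 scale (SE, n = 3 and 3, adjusted p = 4.33e-10 in edgeR) after acute L-DOPA, a 5.07-fold difference. After chronic L-DOPA it was 2.00 ± 0.10 (SE, adjusted p = 5.40e-07 in edgeR), a 4.01-fold difference. These are bulk tissue values, in which fewer cells of a type and less RNA per cell cannot be told apart.

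Egr2, also called Krox20 and known from myelinating Schwann cells and from hindbrain patterning, lies at chr10:67000617-67004936 on the plus strand (NM_010118, 2 exons, 2965 nt). It had the lowest unlesioned level per kilobase of the 4 Egr genes, 2.29 ± 0.212 CPM per kilobase (SD, n = 3) in the acute and 1.20 ± 0.228 in the chronic group, and the largest fold change. The levels were 6.317, 6.566 and 7.511 CPM in the acute unlesioned and 117.5, 111.5 and 119.5 CPM in the acute lesioned striatum. After chronic L-DOPA they were 3.546, 4.249 and 2.896 CPM in the unlesioned and 111.8, 86.6 and 95.39 CPM in the lesioned striatum. The lesioned libraries stood more than an order of magnitude above the unlesioned ones in both treatments, and only the acute and chronic lesioned groups overlapped. The lesion effect was 4.10 ± 0.079 on the log2 scale (SE, adjusted p = 3.91e-11 in edgeR) after acute and 4.78 ± 0.16 (SE, adjusted p = 2.80e-08) after chronic L-DOPA, that is 17.2-fold and 27.5-fold. Among 20402 genes compared by their top transcript after acute L-DOPA, 26 had a larger fold change, and among 19742 after chronic L-DOPA, 13 had.

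Since Egr2 is known from myelinating cells, myelin markers were read beside it. The summed level of 10 oligodendrocyte and Schwann cell myelin markers, none at 0, was between 2180 and 2441 CPM in the acute unlesioned, between 2213 and 3666 CPM in the acute lesioned, between 1663 and 2353 CPM in the chronic unlesioned and between 1236 and 2203 CPM in the chronic lesioned libraries, so the lesioned and unlesioned groups overlapped in both treatments. Within the replicate pairs the sum was higher on the lesioned side in 3 of 3 pairs after acute L-DOPA (2441 and 3666, 2296 and 2763, 2180 and 2213 CPM) and lower in 3 of 3 after chronic L-DOPA (1663 and 1236, 2353 and 2203, 1728 and 1426 CPM), whereas Egr2 was higher in all of them. Of these 10 markers 3 were called higher after acute L-DOPA, and 1 was called higher and 1 lower after chronic L-DOPA. Their part in the values of Egr2 was not tested.

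Promoter sequences of the gene's RefSeq entries (table built on GRCm38.p6) were searched on both strands, over the 250 bases before the start, for the CArG box, which is the core of the serum response element, for TGACGTCA and its short form TGACG, the cAMP response element, for the EGR sites GCGTGGGCG and GCGGGGGCG, and for the AP-1 site TGANTCA. The table has 8 entries for 4 of the genes, Egr2, Egr4, Nab1 and Nab2, and each was found at a single place on its chromosome in mm9, whose coordinates are given. The sequences of Egr2 and Egr4 are shown because these genes had the largest fold changes, and that of each Nab gene further on because the pair differed in response. Capitals mark a match and all runs read 5′ to 3′ on the gene's strand, ending at the base before the start.

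Egr2, chr10:67000367-67000616, plus strand: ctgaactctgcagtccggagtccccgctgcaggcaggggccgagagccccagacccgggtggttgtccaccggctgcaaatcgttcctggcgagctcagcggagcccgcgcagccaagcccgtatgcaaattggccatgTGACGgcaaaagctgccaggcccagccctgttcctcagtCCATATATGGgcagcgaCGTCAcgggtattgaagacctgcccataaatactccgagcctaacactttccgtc

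Egr4, chr6:85463584-85463833, minus strand: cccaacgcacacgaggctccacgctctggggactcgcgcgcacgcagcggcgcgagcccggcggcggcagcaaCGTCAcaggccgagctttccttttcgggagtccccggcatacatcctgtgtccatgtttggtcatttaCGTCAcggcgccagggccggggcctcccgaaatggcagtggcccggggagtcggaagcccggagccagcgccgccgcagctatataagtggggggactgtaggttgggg

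The Egr2 stretch holds a CArG box at -72 to -63 counted from the start, with 1 ETS core GGAA within 20 bases of it, and TGACG at -111 to -107 and, on the other strand, at -55 to -51. Of 32851 promoter entries of this length, 1.47% hold a CArG box, 0.825% a CArG box with GGAA within 20 bases, and 17.8% TGACG. The Egr4 stretch holds TGACG on the other strand at -177 to -173 and at -109 to -105 and no CArG box. Neither stretch holds TGACGTCA, an EGR site or an AP-1 site in these letters. The Egr2 stretch shown is that of the start of NM_010118, 1 of 5 entries of the gene. The entries starting at 67000618 and 67000678 hold the same CArG box and TGACG runs, the entry starting at 67000314 holds another CArG box with 2 GGAA within 20 bases and no TGACG, and the entry starting at 66998247 holds no match. A match is a run of letters and not a measured binding site.

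Egr3, known from muscle spindle development and from synaptic plasticity, lies at chr14:70478546-70482421 on the plus strand (AK141603, 1 exon, 3876 nt). Its levels were 46.52, 42.57 and 51.17 CPM in the acute unlesioned and 187.5, 190.9 and 202.3 CPM in the acute lesioned striatum. After chronic L-DOPA they were 41.25, 33.96 and 39.19 CPM in the unlesioned and 234.7, 236.7 and 231.4 CPM in the lesioned striatum. Unlike those of Egr1 and Egr4, the chronic lesioned libraries were the highest of all, and the 4 groups did not overlap. The lesion effect was 2.05 ± 0.074 on the log2 scale (SE, adjusted p = 3.47e-09 in edgeR) after acute and 2.62 ± 0.092 (SE, adjusted p = 4.05e-08) after chronic L-DOPA, 4.15-fold and 6.15-fold.

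Egr4, the member that lacks the NAB docking domain, lies at chr6:85461125-85463583 on the minus strand (AK141637, 2 exons, 2138 nt). Its levels were 23.0, 22.55 and 27.53 CPM in the acute unlesioned and 227.2, 215.5 and 261.9 CPM in the acute lesioned striatum. After chronic L-DOPA they were 13.75, 16.45 and 14.04 CPM in the unlesioned and 173.7, 151.8 and 199.2 CPM in the lesioned striatum. The groups did not overlap, in the same order as those of Egr1. The lesion effect was 3.28 ± 0.098 on the log2 scale (SE, adjusted p = 7.35e-10 in edgeR) after acute and 3.57 ± 0.12 (SE, adjusted p = 3.62e-08) after chronic L-DOPA, 9.68-fold and 11.9-fold.

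Nab2, the inducible corepressor and itself known as an EGR target, lies at chr10:127097974-127103759 on the minus strand (NM_008668, 7 exons, 2575 nt). Its levels were 13.96, 13.85 and 15.16 CPM in the acute unlesioned and 16.88, 18.14 and 22.19 CPM in the acute lesioned striatum. After chronic L-DOPA they were 15.35, 12.63 and 13.13 CPM in the unlesioned and 28.5, 23.09 and 26.05 CPM in the lesioned striatum. The unlesioned groups overlapped each other, the acute lesioned group lay just above them, and the chronic lesioned group was the highest. The lesion effect was 0.42 ± 0.091 on the log2 scale (SE, adjusted p = 0.0115 in edgeR), or 1.34-fold, after acute and 0.92 ± 0.10 (SE, adjusted p = 0.000250), or 1.89-fold, after chronic L-DOPA. With the mean log2 level of the cortical markers as a covariate the acute effect was 0.26 ± 0.098 and no longer passed (adjusted p = 0.0982 in edgeR), while the chronic effect was 1.02 ± 0.11. On the genome, introns included, Nab2 overlaps Stat6 on the opposite strand by 70 nt at its 3′ end. It also covers the whole span of 1646 nt of ENSMUST00000133270 (chr10:127100895-127102540, plus strand, mean 6.51 CPM). The sources used here do not say that counting used the strand, so reads of Nab2 and of these transcripts cannot be told apart where they overlap. The log2 fold changes of ENSMUST00000133270 were 0.42 and 0.90 after acute and chronic L-DOPA, and those of Stat6, whose mean level was 2.96 CPM, were 0.28 and -0.05. Those of the Nab2 transcript AK034709 (chr10:127097976-127099974), which lies outside the span of ENSMUST00000133270 but overlaps Stat6, were 0.42 and 1.00.

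Nab1, the corepressor that is expressed without induction in many tissues, lies at chr1:52512693-52557292 on the minus strand (NM_008667, 8 exons, 5088 nt). Its levels were 4.905, 4.183 and 4.798 CPM in the acute unlesioned and 5.632, 5.10 and 4.771 CPM in the acute lesioned striatum. After chronic L-DOPA they were 4.163, 4.908 and 4.099 CPM in the unlesioned and 4.396, 5.032 and 3.965 CPM in the lesioned striatum. All groups overlapped, although each library held between 386 and 861 counts of Nab1. The log2 fold change was 0.16 ± 0.086 (SE, adjusted p = 0.237 in edgeR) after acute and 0.03 ± 0.12 (SE, adjusted p = 0.921) after chronic L-DOPA. The covariate of cortical markers gave 0.30 ± 0.093 after acute L-DOPA, which passed (adjusted p = 0.0478 in edgeR), and -0.05 ± 0.14 after chronic L-DOPA.

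The promoters of both corepressor genes were searched in the same way.

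Nab1, chr1:52557293-52557542, minus strand: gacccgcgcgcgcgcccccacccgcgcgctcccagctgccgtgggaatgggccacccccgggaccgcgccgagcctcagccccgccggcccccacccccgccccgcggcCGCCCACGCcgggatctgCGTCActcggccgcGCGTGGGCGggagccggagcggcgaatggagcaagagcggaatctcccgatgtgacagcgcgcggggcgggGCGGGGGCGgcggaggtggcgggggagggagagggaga

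Nab2, chr10:127103760-127104009, minus strand: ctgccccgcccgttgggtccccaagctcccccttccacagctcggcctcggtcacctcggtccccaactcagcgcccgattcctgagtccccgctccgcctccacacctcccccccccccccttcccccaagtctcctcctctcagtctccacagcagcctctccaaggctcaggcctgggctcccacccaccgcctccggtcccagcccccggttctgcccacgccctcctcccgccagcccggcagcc

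The Nab1 stretch holds GCGTGGGCG at -109 to -101 and, on the other strand, at -141 to -133, GCGGGGGCG at -38 to -30, and TGACG on the other strand at -123 to -119. Of all entries, 0.536% hold GCGTGGGCG and 2.57% GCGGGGGCG. The Nab2 stretch holds none of the motifs searched, which says only that these letters are not in this window. For comparison 1.55% of all entries hold TGACGTCA and 6.75% TGANTCA.

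In all, 5 of the 6 genes were called higher on the lesioned side after acute L-DOPA and none lower. Of all 129674 transcripts tested 12.9% were called, 6.85% as higher and 6.02% as lower. The lesioned and unlesioned libraries of the same 5 genes did not overlap, which held for 32.6% of all transcripts. After chronic L-DOPA 5 of the 6 were called higher, against 12.0% of 127063 transcripts called, 7.71% as higher and 4.33% as lower, and the libraries of 5 did not overlap, against 30.8% of all transcripts. The replicate numbers were taken to pair lesioned with unlesioned libraries, although the labels count 12 mice. With the number as a block the calls of the 6 genes were as before. Then 28237 transcripts were called after acute and 27505 after chronic L-DOPA, in place of 16684 and 15295. Without replicate 2 of the chronic unlesioned group the chronic log2 fold changes of Egr1, Egr2, Egr3, Egr4 and Nab2 were 2.08, 4.93, 2.54, 3.65 and 0.86, and all passed in edgeR. The set called after acute L-DOPA changed with the covariate of cortical markers, with which Nab2 did not pass and Nab1 did (adjusted p = 0.0982 and 0.0478 in edgeR).

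**Figure D2:**
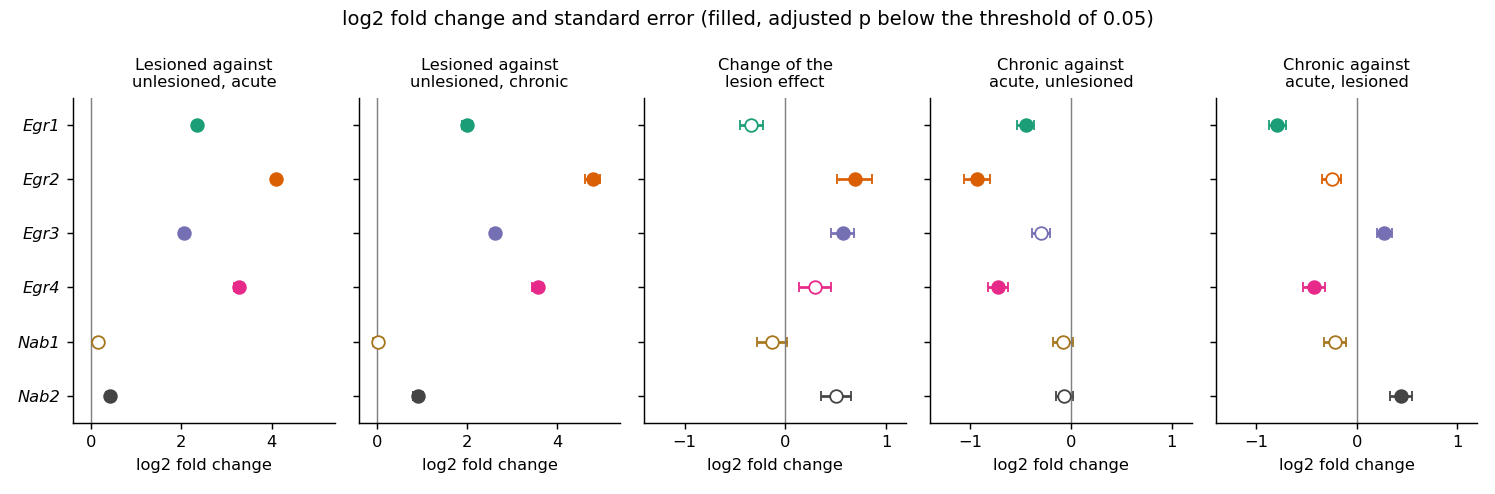
log2 fold change (points) and standard error (bars) of each gene in the 5 comparisons, with a wider axis for the lesion effects; filled points passed an adjusted p of 0.05 in edgeR. Egr1 to Egr4 lie between 2.00 and 4.78 for the lesion effects, Nab2 lies at 0.42 and 0.92, and Nab1 is near 0.

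In the lesioned striatum, chronic against acute L-DOPA separated the members in direction. Egr1 was lower after chronic L-DOPA by 0.79 ± 0.081 on the log2 scale (SE, adjusted p = 0.000105 in edgeR), a 1.72-fold difference, and Egr4 by 0.42 ± 0.11 (SE, adjusted p = 0.0185), a 1.34-fold difference. Egr3 was higher by 0.28 ± 0.071 (SE, adjusted p = 0.0183 in edgeR), 1.21-fold, and Nab2 by 0.44 ± 0.11 (SE, adjusted p = 0.0169), 1.36-fold. The log2 difference was -0.25 ± 0.096 for Egr2 and -0.21 ± 0.11 for Nab1, and neither passed (adjusted p = 0.0860 and 0.180 in edgeR). Thus 2 of the 6 genes rose and 2 fell, and the 2 groups of these 4 genes did not overlap, in a comparison in which 23.3% of all 127463 transcripts were called, 12.1% higher and 11.2% lower, and the groups of 40.3% did not overlap. The share of members called has to be read against these high shares. The fall of Egr1 passed when any of the 6 libraries was left out. The rise of Egr3 did not pass without acute replicate 1 or 2 or chronic replicate 1 (adjusted p = 0.0672, 0.0790 and 0.0619 in edgeR), nor that of Nab2 (0.0667, 0.0709 and 0.0791), and the fall of Egr4 did not pass without acute replicate 3 or chronic replicate 1 (0.0658 and 0.0713). For Egr2, leaving out chronic replicate 1 gave a fall of 0.35 that passed (adjusted p = 0.0333 in edgeR). Markers of several cell types were lower in the same comparison. Of the myelin markers 8 of 9 tested were called lower in edgeR and 3 called in DESeq2, with sums that did not overlap (2213 to 3666 CPM after acute and 1236 to 2203 CPM after chronic L-DOPA), as were 5 of 7 microglia, 3 of 5 D2 spiny neuron, 3 of 6 astrocyte, 2 of 3 blood and 2 of 3 cholinergic interneuron markers, while 4 of 6 D1 spiny neuron markers were called higher. Their part in the differences of the members was not tested.

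In the unlesioned striatum, 3 of the 6 genes were lower after chronic than after acute L-DOPA and none higher, where 2.61% of all 129187 transcripts were called, 1.64% as lower and 0.968% as higher. Egr2 fell by 0.93 ± 0.13 on the log2 scale (SE, adjusted p = 0.0116 in edgeR), Egr4 by 0.72 ± 0.096 (SE, adjusted p = 0.0110) and Egr1 by 0.45 ± 0.084 (SE, adjusted p = 0.0260). Egr3 differed by -0.29 ± 0.088 and did not pass in edgeR (adjusted p = 0.0928), although its libraries did not overlap either, and it passed in DESeq2 (adjusted p = 0.0341). The libraries of 4 genes, Egr1 to Egr4, did not overlap, against 26.2% of all transcripts. The log2 differences of Nab1 and Nab2 were -0.08 ± 0.098 and -0.06 ± 0.081 (adjusted p = 0.694 and 0.693 in edgeR). These calls leaned on single libraries. Egr1 passed in only 1 of 6 fits that left out a library, the one without chronic replicate 2, with adjusted p up to 0.131 in edgeR. Egr2 passed in 4 of 6, failing without acute replicate 1 or 2 (adjusted p = 0.0639 and 0.0677 in edgeR), and Egr4 in 5 of 6, failing without acute replicate 1 (0.0597). Without chronic replicate 2, the library with choroid plexus markers, the falls of Egr1, Egr2 and Egr4 were 0.53, 1.09 and 0.81 with adjusted p of 0.00125, 0.000213 and 0.000348 in edgeR, and 14377 transcripts were called in place of 3366. In the same comparison 2 of 7 microglia and 2 of 6 astrocyte markers were called lower, and their sums did not overlap (microglia 61.84 to 64.39 CPM after acute and 42.27 to 55.88 CPM after chronic L-DOPA, astrocytes 279.2 to 295.9 and 254.6 to 276.8 CPM), while 1 of 5 D2 spiny neuron markers was called lower and 1 of 8 cortical markers higher. Their part in the falls of the Egr genes was not tested.

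The change of the lesion effect from acute to chronic L-DOPA was tested as an interaction over all 12 libraries. It passed for 2 of the 6 genes, both with a larger lesion effect after chronic L-DOPA, where 4.52% of 130867 transcripts were called, 3.22% in this direction and 1.30% in the other. Egr2 changed by 0.69 ± 0.17 on the log2 scale (SE, adjusted p = 0.0308 in edgeR) and Egr3 by 0.57 ± 0.11 (SE, adjusted p = 0.00905). For Egr2 the lower unlesioned level after chronic L-DOPA enters this difference, since its lesioned level did not rise, whereas for Egr3 the lesioned level was higher and the unlesioned level was 38.1 ± 3.76 against 46.8 ± 4.30 CPM (SD, n = 3). In the same interaction 4 of 6 D1 spiny neuron markers were called, all upward, by 3.26 (Pdyn), 1.15 (Chrm4), 0.98 (Drd1a) and 0.92 (Isl1) on the log2 scale, and 1 of 5 D2 spiny neuron and 1 of 3 cholinergic interneuron markers downward. Their part in the changes of Egr2 and Egr3 was not tested. Egr3 passed in all 12 fits that left out a library. Egr2 passed in 3 of 12, with adjusted p between 0.00635 and 0.0904 in edgeR, and failed without acute unlesioned replicate 2 or 3, any acute lesioned replicate, chronic unlesioned replicate 1 or 3 or chronic lesioned replicate 1 or 3.

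Of the other members, the lesion effect of Nab2 changed by 0.50 ± 0.15 and did not pass (adjusted p = 0.0742 in edgeR), but with the replicate number as a block the change was 0.51 ± 0.087 and passed (adjusted p = 0.00202 in edgeR), as it did in DESeq2 (adjusted p = 0.0284). It also passed in edgeR without acute lesioned replicate 3, chronic unlesioned replicate 1 or chronic lesioned replicate 2 (adjusted p = 0.0211, 0.0469 and 0.0264). With the block 15876 transcripts were called in place of 5911. The changes of Egr1 and Egr4 were -0.34 ± 0.11 and 0.30 ± 0.16 (adjusted p = 0.111 and 0.329 in edgeR), and that of Nab1 was -0.14 ± 0.15 (adjusted p = 0.677). Without chronic unlesioned replicate 3, the change of Egr1 was -0.41 and passed (adjusted p = 0.0454 in edgeR). Without chronic unlesioned replicate 2, the changes of Egr2, Egr3 and Nab2 were 0.84, 0.50 and 0.45, and Nab2 did not pass (adjusted p = 0.131 in edgeR).

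Read per kilobase, the 4 Egr genes together rose from 62.1 ± 3.72 to 382.6 ± 10.7 CPM per kilobase (SD, n = 3) between acute unlesioned and acute lesioned striatum, and were at 44.5 ± 3.01 and 281.8 ± 19.1 in the chronic unlesioned and lesioned striatum. The groups of this sum did not overlap. Both Nab genes together were at 6.47 ± 0.323 and 8.42 ± 1.00 CPM per kilobase in the acute and at 6.19 ± 0.517 and 10.9 ± 0.990 in the chronic unlesioned and lesioned groups. The ratio of summed Egr to summed Nab RNA was 9.59 ± 0.137 and 45.8 ± 4.14 after acute and 7.23 ± 0.730 and 25.8 ± 1.02 after chronic L-DOPA, in unlesioned and lesioned striatum. In the chronic lesioned libraries this ratio lay between 24.7 and 26.7, below all acute lesioned libraries (41.3 to 49.5) and above all unlesioned ones. Its Egr sum includes Egr4, on which NAB proteins do not dock, so it is no ratio of binding partners. The ratio of Egr1 to Nab2 per kilobase was 6.54 ± 0.247 and 25.2 ± 3.84 after acute L-DOPA, in unlesioned and lesioned striatum. After chronic L-DOPA it was 5.04 ± 0.823 and 10.6 ± 0.333.

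**Figure D3:**
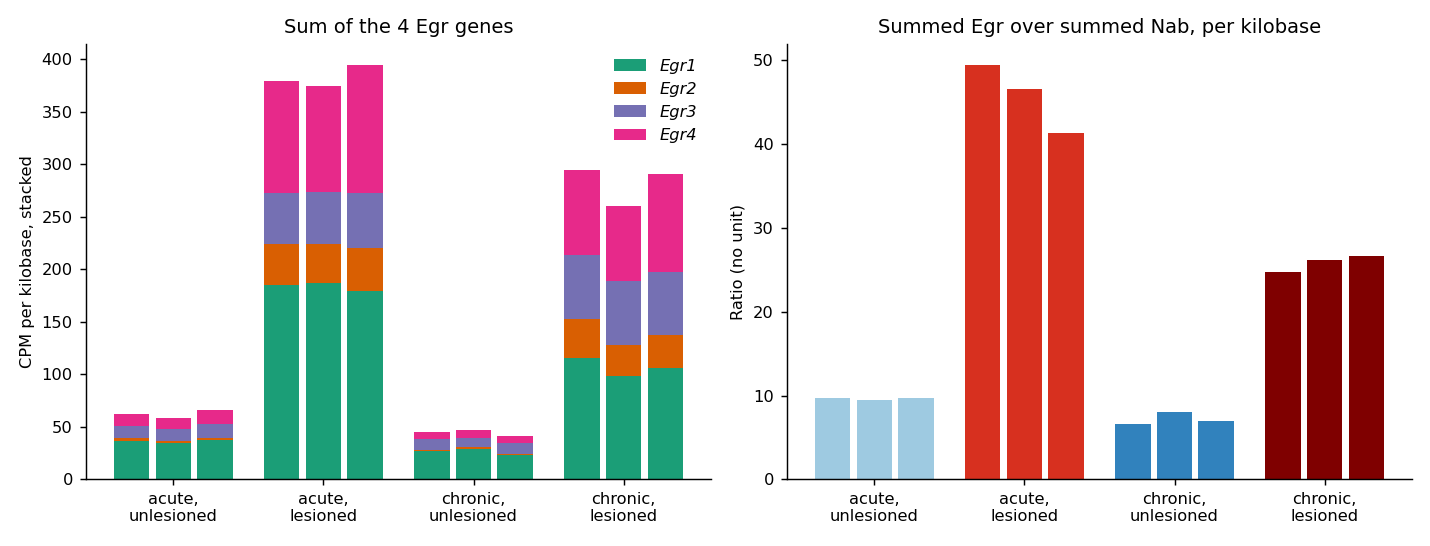
Left, level of Egr1 to Egr4 in CPM per kilobase stacked for each of the 12 libraries (bars), by group; right, ratio of summed Egr to summed Nab levels in the same libraries, without unit. The Egr sum is between 259.9 and 394.6 in lesioned and between 41.3 and 65.9 in unlesioned libraries, and the ratio is highest in the acute lesioned group.

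The make-up of the Egr sum differed between groups as well. Egr1 gave 58.6 ± 1.73% of it in the acute and 59.6 ± 2.45% in the chronic unlesioned group (SD, n = 3), 48.0 ± 2.25% in the acute lesioned and 37.8 ± 1.38% in the chronic lesioned group. Egr4 gave 18.3 ± 1.1% and 15.5 ± 1.07% in the acute and chronic unlesioned groups and 28.7 ± 2.13% and 29.0 ± 2.66% in the lesioned ones. Egr2 gave 3.69 ± 0.215% and 2.68 ± 0.335% against 10.2 ± 0.210% and 11.7 ± 0.950%. Egr3 gave 19.4 ± 0.625%, 13.1 ± 0.246%, 22.2 ± 3.21% and 21.5 ± 1.70% in the acute unlesioned, acute lesioned, chronic unlesioned and chronic lesioned groups.

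The order of the Egr genes per kilobase thus changed with the group. In the acute unlesioned striatum Egr1 (36.3 ± 1.39 CPM per kilobase) was followed by Egr3 (12.1 ± 1.11) and Egr4 (11.4 ± 1.29), whose libraries overlapped, and then Egr2. In the acute lesioned striatum Egr1 (183.7 ± 3.62 CPM per kilobase) was followed by Egr4 (109.9 ± 11.3), Egr3 (49.9 ± 2.00) and Egr2 (39.2 ± 1.41), without overlap. In the chronic lesioned striatum the order was Egr1 (106.5 ± 8.31 CPM per kilobase), Egr4 (81.8 ± 11.1), Egr3 (60.4 ± 0.683) and Egr2 (33.02 ± 4.31), again without overlap. The ratio of Egr1 to Egr3 per kilobase was 3.68 ± 0.209 in the acute lesioned and 1.76 ± 0.144 in the chronic lesioned group, and the 2 groups of 3 libraries did not overlap. The ratio of Nab2 to Nab1 per kilobase was 7.38 ± 1.66 and 11.6 ± 2.21 in the same groups, with overlap.

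All 42 transcripts of the 6 genes passed the filter on low counts. Transcripts of a gene share reads, so their agreement is no independent evidence. The lesion effects of the Egr transcripts stayed close to those of the top transcript of each gene. For example, the log2 fold changes were between 4.09 and 4.26 after acute and between 4.77 and 4.88 after chronic L-DOPA for the 8 transcripts of Egr2. For the 9 transcripts of Nab2 they were between 0.29 and 0.45 and between 0.84 and 1.08, with 8 and 9 called higher. Of the 9 transcripts of Nab1 none was called in edgeR or DESeq2 in either lesion comparison, with 1 and 0 at an unadjusted p under 0.05, and their log2 fold changes spread from -0.29 to 0.38 and from -0.10 to 0.59. In the other comparisons the calls in edgeR differed between transcripts of a gene. Between chronic and acute lesioned striatum 6 of 9 Egr3 transcripts were called higher and 2 of 8 Egr2 transcripts lower. For the change of the lesion effect 4 of 8 Egr2, 7 of 9 Egr3 and 1 of 9 Nab2 transcripts were called. In the unlesioned striatum 6 of 8 Egr2 transcripts were called lower.

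**Figure D4:**
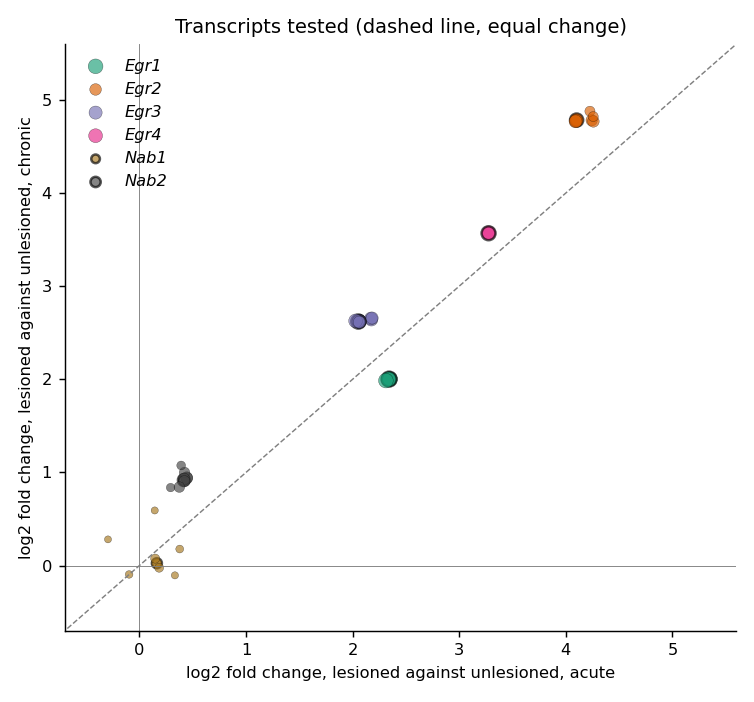
log2 fold change of lesioned against unlesioned striatum after acute (x axis) and after chronic (y axis) L-DOPA for the 42 transcripts; colour gives the gene, a larger point a higher mean CPM, and a thick outline the top transcript. Transcripts of Egr2, Egr3, Egr4 and Nab2 lie above the dashed line of equal change and those of Egr1 below it.

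Factors, kinases and phosphatases that act on Egr promoters or in MAP kinase signalling were described as a list of 19 genes, all tested. After acute L-DOPA 5 were higher and 4 lower in the lesioned striatum, where 12.9% of all transcripts were called, with a list median of 0.02 against 0.01 over all transcripts (log2). After chronic L-DOPA 6 were higher and 3 lower, where 12.0% were called, with a median of 0.09 against -0.02. The largest acute changes were those of Dusp6 (2.47 ± 0.11) and Dusp1 (2.36 ± 0.067), phosphatases that switch off MAP kinases, of Dusp5 (1.17 ± 0.11), and of Srf (0.99 ± 0.071), the factor that binds the CArG box. After chronic L-DOPA they were those of Dusp5 (4.55 ± 0.13), Dusp1 (3.53 ± 0.13), Dusp4 (1.44 ± 0.24) and Dusp6 (1.28 ± 0.13). In the lesioned striatum 4 of the 19 were higher and 3 lower after chronic than after acute L-DOPA, beside 23.3% of all transcripts called, with Dusp5 at 3.00 ± 0.11 and Dusp6 at -1.67 ± 0.16. The lesion effect changed upward for 3 of the 19 and downward for 1, beside 4.52% of all transcripts called, with the largest changes those of Dusp5 (3.39 ± 0.17), Dusp6 (-1.19 ± 0.19) and Dusp1 (1.17 ± 0.14). In the unlesioned striatum 1 of the 19 passed, a share near the 2.61% called over all transcripts, Dusp6, which fell by 0.48 ± 0.066.

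NuRD subunits, which NAB proteins recruit, and other binders of EGR proteins or of a like GC-rich site made up a list of 16 genes, of which 15 were tested. After acute L-DOPA 2 of the 15 were higher and 3 lower in the lesioned striatum in edgeR, where 12.9% of all transcripts were called, and DESeq2 called 3, with a median of 0.11 against 0.01 over all transcripts, and the largest changes were those of Ddx20 (-0.51 ± 0.099), Chd3 (0.44 ± 0.058), Rbbp7 (0.32 ± 0.058) and Gatad2b (-0.22 ± 0.068). After chronic L-DOPA 2 of the 15 were higher and none lower, a share near the 12.0% called over all transcripts, with a median of 0.01 against -0.02. These were Chd3, a remodelling helicase of NuRD, at 0.82 ± 0.096 and Rbbp7, a histone chaperone of the complex, at 0.65 ± 0.076. In the lesioned striatum 2 of the 15 were higher and 1 lower with chronic than with acute L-DOPA, a share below the 23.3% called over all transcripts, namely Chd3 (0.60 ± 0.073), Rbbp7 (0.26 ± 0.071) and Mbd3 (-0.33 ± 0.077). No gene of the list was called in edgeR in the unlesioned comparison or for the change of the lesion effect, where 2 and 4 had an unadjusted p under 0.05 and DESeq2 called 0 and 2.

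Genes named as EGR targets formed a list of 23, of which 21 were tested and which includes Nab1 and Nab2. Like the lists above, it was chosen with earlier results of these data known, so its shares are no independent evidence. After acute L-DOPA 8 of the 21 were higher and 3 lower in the lesioned striatum, where 6.85% of all transcripts were called higher and 6.02% lower, with a median of 0.16 against 0.01 over all transcripts. After chronic L-DOPA 12 were higher and 1 lower, where 7.71% and 4.33% were, with a median of 0.52 against -0.02. Arc, which encodes a synaptic protein, was higher by 3.31 ± 0.11 after acute and by 3.74 ± 0.14 after chronic L-DOPA, and Gadd45b, a stress sensor, by 2.82 ± 0.095 and 3.58 ± 0.14. Ptgs2, the inducible cyclooxygenase, was higher by 2.32 ± 0.45 and 4.79 ± 0.24, and Tgfb1, a cytokine, by 2.95 ± 0.12 after chronic L-DOPA. Bdnf, a neurotrophin, differed by -1.88 ± 0.56 after acute L-DOPA, and its adjusted p was 0.0458 in edgeR. Its libraries overlapped, at 0.122 to 0.575 CPM in the acute unlesioned and 0.0347 to 0.144 CPM in the acute lesioned group. The lowest was near the floor of 3 counts. Cortical markers had a median of -1.19 in the same comparison, with 1 of 8 called higher and 1 lower, and their part in the value of Bdnf was not tested.

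The lesion effect changed for 8 of these 21 genes, 7 upward and 1 downward, beside 4.52% of all transcripts called. The largest changes were those of Th, the rate-limiting enzyme of dopamine synthesis (2.72 ± 0.22), Tgfb1 (2.47 ± 0.16), Ptgs2 (2.47 ± 0.64) and Vegfa, a growth factor of blood vessels (1.72 ± 0.15). Th was at 1.80 ± 0.255 CPM (SD, n = 3) in the acute unlesioned, 1.43 ± 0.365 in the acute lesioned, 1.84 ± 0.10 in the chronic unlesioned and 9.63 ± 1.33 CPM in the chronic lesioned group. In the lesioned striatum 10 of the 21 were higher and 3 lower with chronic than with acute L-DOPA, beside 23.3% of all transcripts. In the unlesioned striatum 1 of the 21 passed, a share near the 2.61% of all transcripts, Arc, which fell by 0.94 ± 0.13. Several of these genes respond to other factors of the same stimulus, and no binding of an EGR protein was measured here.

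**Figure D5:**
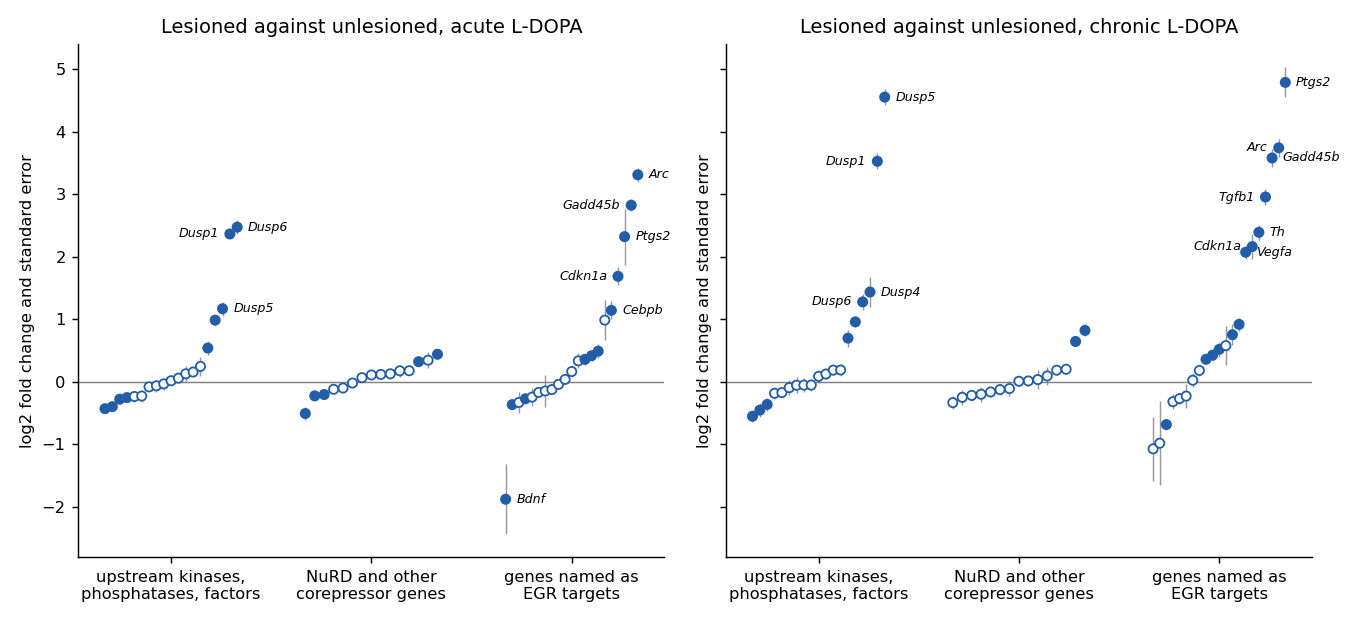
log2 fold change (points, sorted within a list) and standard error (bars) of lesioned against unlesioned striatum for the genes of the 3 lists, after acute (left) and chronic (right) L-DOPA; filled points passed an adjusted p of 0.05 in edgeR and are named where they exceed 1 in size. Dusp5 and the target genes Tgfb1 and Ptgs2 stand higher on the right, while the corepressor genes stay between -0.51 and 0.82.

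The genes whose pattern was most like each member were found by the root mean square difference of centred log2 CPM over the 12 libraries, among 12786 to 12788 genes with a mean of at least 1 CPM. Nearest to Egr1 were Nfil3 (0.142), Ppan (0.215) and Mcl1 (0.225), which like Egr1 had a lower mean in the chronic than in the acute lesioned group. Nearest to Egr2 were Fos (0.218), Fosb (0.289) and Atf3 (0.480), 3 immediate early genes of the bZIP class. Nearest to Egr4 were Arc (0.203), Junb (0.212) and BC042782 (0.262), and nearest to Egr3 were Zfp948 (0.141), Arid3b (0.142) and Dom3z (0.190), each with its highest mean in the chronic lesioned group. Nab2 was nearest to Inpp5f (0.0921), Mcmbp (0.0957) and Kctd12 (0.118), and Nab1 to Nek7 (0.0600), Lamp1 (0.0638) and Il6st (0.0671). No Egr gene was among the 3 nearest of another. Egr1 and Egr3 differed from each other by 0.411 and Egr2 and Egr4 by 0.532.

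Other cell markers differed between groups beside these results. Markers of D1 spiny neurons (6 genes, none at 0) summed to between 175.7 and 188.0 CPM in the acute unlesioned, between 133.0 and 145.1 in the acute lesioned, between 171.2 and 211.7 in the chronic unlesioned and between 295.9 and 345.2 CPM in the chronic lesioned libraries. The markers did not move together. After acute L-DOPA 1 of the 6 was called higher and 5 lower, and after chronic L-DOPA 2 were called higher and 2 lower. The high chronic sum came from Pdyn, which encodes prodynorphin (32.6 and 184.4 CPM on average in the chronic unlesioned and lesioned groups), while Drd1a, the D1 receptor, was at 70.1 and 28.02 CPM and Chrm4, a muscarinic receptor, at 27.4 and 18.1 CPM. Those of D2 spiny neurons (5 of 6 in the table) summed to between 505.1 and 601.0 CPM in all unlesioned and between 800.6 and 1065 CPM in all lesioned libraries. Most of this sum was Penk, which encodes proenkephalin (352.5 and 674.4 CPM on average in the acute, 362.2 and 784.5 CPM in the chronic unlesioned and lesioned groups). After acute L-DOPA 5 of 5 were called higher, but after chronic L-DOPA only 2 of 5, and the log2 fold changes of Drd2, Adora2a and Gpr6 were then 0.10, 0.03 and 0.08. Astrocyte markers (6 genes) were between 279.2 and 295.9 CPM in the acute unlesioned and between 331.2 and 394.0 CPM in the acute lesioned libraries, and between 254.6 and 276.8 CPM and between 298.0 and 350.2 CPM in the chronic ones. After acute L-DOPA 3 of the 6 were called higher, but after chronic L-DOPA 1 was, Gfap, at 14.05 and 54.78 CPM on average in the unlesioned and lesioned groups, while Slc1a3 was at 79.32 and 79.02 CPM. Microglia markers (7 genes) were between 61.84 and 64.39 CPM in the acute unlesioned and between 67.93 and 80.44 CPM in the acute lesioned libraries, without overlap and with 2 of 7 called higher. Chronic L-DOPA libraries lay between 42.27 and 55.88 (unlesioned) and between 44.17 and 56.4 CPM (lesioned), with overlap, and were higher on the lesioned side in 3 of 3 replicate pairs. The part of these markers in the results of the 6 genes was not tested.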

How the data were processed

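Striatal RNA of 12 libraries was sequenced after TruSeq preparation on a Genome Analyzer II. The authors mapped the reads to mm9 with Genomatix software and deposited a read count per transcript, without normalization, and a normalized expression signal scaled by length and library size, which was used here only as a check (0.955 to 1.01 of each library's median ratio to CPM per kilobase). The submitters' processing notes name DESeq and mm9. How multiply mapped reads and strand were handled is not given in the sources used here. The authors' tables of comparisons hold their fold changes and p-values and were not used, nor were 36 further columns of values per sample. Of 189660 transcripts, 296 name no gene and were left out (0.0485% of counts), and 19578 had no count.

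Counts were tested with edgeR 4.0.16 in R 4.3.3 (filterByExpr by group, TMM, quasi-likelihood F test) on the 6 libraries of a comparison or, for the interaction, on all 12, with Benjamini-Hochberg adjustment over all transcripts tested and a threshold of 0.05. Standard errors come from the fold change and its F statistic. p-values measure the spread between these libraries. An exact permutation test of 3 against 3 cannot go below 0.1 and was not run. The floor of 3 counts was 0.0173 to 0.0342 CPM, and it covers counting error only. The list genes that are named are the 4 or fewer per list and comparison with the largest change among those that passed, except that 1 result is not reported here. For each member the 3 genes outside the set with the most similar pattern are named, and likeness used a pseudocount of 0.05 CPM. The members and lists were chosen with earlier results of these data known, and the promoter motifs likewise.

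The replicate numbers come from the labels. Deviations of same-numbered lesioned and unlesioned libraries from their group means correlated at 0.474, 0.475 and 0.385 after acute and at 0.514, 0.574 and 0.160 after chronic L-DOPA across 12794 genes, all above the limit of 0.1, so the numbers were taken to pair them, although the labels count 12 mice. No replicate was a copy of another (chi-square per degree of freedom from 7.35 to 28.7). Alternatives were DESeq2 1.42.0 and its size factors, no filter, a single transcript or the sum per gene, the replicate block, a cortical marker covariate, a fit over all libraries, an adjusted p of 0.01, and each library left out. The fits were tested on simulated data.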

Additional observations from a re-analysis of the deposited data

Results flagged for a closer look

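The lesion effect on Egr2 was larger after chronic than after acute L-DOPA by 0.69 on the log2 scale, and that on Egr3 by 0.57, and both stand here because the interaction term itself passed in edgeR. Over the alternatives this call held for Egr2 in 10 of 21 and for Egr3 in 21 of 21. In the same term 4 of 6 D1 spiny neuron markers passed upward, by 0.92 to 3.26. With groups of 3 libraries, no single library was tested for standing apart. Chronic unlesioned replicate 2 was only described, by its choroid plexus markers.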

How the results depend on the processing

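Over the 30 log2 fold changes of the 6 genes, 461 of 510 alternatives kept both direction and side of the threshold, 36 no longer passed, 9 newly passed and 4 changed sign. The sign changes were all of Nab1 after chronic L-DOPA, -0.049 with the cortical covariate, and -0.011, -0.024 and -0.059 without chronic unlesioned replicate 1 or 3 or chronic lesioned replicate 2, where leaving out a library gave -0.059 to 0.113. The lesion effects of Egr1 to Egr4 passed in all 16 alternatives of each treatment. The sum over transcripts ended the fall of Egr1 in the unlesioned striatum (adjusted p = 0.0600 in edgeR) and the change of the lesion effect of Egr2 (0.0740).

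At an adjusted p of 0.01 in edgeR, 4 of the 6 genes passed for the acute lesion effect, where Nab2 did not, 5 for the chronic one, 1 in the lesioned comparison, 0 in the unlesioned comparison (where 4 have an unadjusted p under 0.05, and DESeq2 calls 4 at an adjusted p of 0.05) and 1 for the change of the lesion effect, as with the sum over transcripts. At 0.05 with each library left out, the counts of the latter 3 comparisons were 2 to 4, 0 to 3 and 1 to 3.

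Transcripts called at 0.01 numbered 6707 (acute lesion effect), 7079 (chronic), 12545 (lesioned), 108 (unlesioned) and 2474 (change of the effect). All further counts are at 0.05, where the main analysis called 16684, 15295, 29698, 3366 and 5911 transcripts. With a single transcript per gene the calls were 3135, 2663, 4914, 544 and 1053, and with the sum per gene 2643, 2311, 4310, 101 and 951, fewer features being tested in both. The replicate block, which takes the numbers to pair the sides, gave 28237, 27505 and 15876 for the acute effect, the chronic effect and its change. It changed no other call of a member than that of Nab2 for the change. The cortical covariate gave 10136 (chronic) and 5885 (unlesioned), the fit over all libraries 22946 (chronic), and DESeq2 and no filter 6278 and 5821 (unlesioned). The cause was not tested. Leaving out a library gave 9547 to 15328 (acute), 9137 to 14864 (chronic), 16025 to 36534 (lesioned), 66 to 14377 (unlesioned) and 3794 to 9536 (change). Each member had at least 385 counts in every library, and whether depth limits the calls that failed was not tested.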
